A study of Mus musculus with 2 samples.

Results

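Myeloid cells of the small intestinal epithelial preparation were examined in Adipfl/fl mice and in Adipfl/flpVilli-CreT mice. They numbered 91 of the 8624 barcodes that passed the quality limits, which in turn were part of 21629 deposited barcodes. Membership was chosen by measured transcripts. A barcode needed more than 500 genes, less than 25% of its UMIs (unique molecular identifiers, 1 per captured RNA molecule) from mitochondrial genes, at least 1 UMI of Tyrobp, and at least 2 of the 6 genes Lyz2, C1qa, C1qb, Csf1r, H2-Aa and Siglech. It also had to hold no UMI of Cd3e, Cd3g, Cd3d or Cd79a, which mark T and B cells.

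Both groups carried floxed alleles of adiponectin, the hormone encoded by Adipoq. In the Adipfl/flpVilli-CreT group a Cre recombinase driven by the villin promoter, which is active in intestinal epithelium, deleted the gene in that epithelium. The controls were Adipfl/fl littermates without Cre, and the animals were 8-week-old males whose tissue was pooled, so that each genotype is 1 library and has no replicate. Differences between the genotypes therefore cannot be told apart from differences between the 2 libraries, no test between genotypes was possible, and every interval below is a 95% interval that covers counting error only. Minced tissue was digested with collagenase, papain and DNase and freed of dead cells before droplet-based 3′ RNA sequencing, and the tissue is described in the study as epithelium enriched for crypts. In the whole libraries 1 UMI of Adipoq was found in the control and 0 in the Cre library, and myeloid cells held 0 in both, so the deletion could not be checked from these counts.

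Intestinal myeloid cells include resident macrophages, which engulf dying epithelial cells and microbes, recycle iron and secrete complement and chemokines. They also include dendritic cells, which present antigen on MHC class II molecules, and plasmacytoid dendritic cells, which sense viral nucleic acid and make type I interferon. Tyrobp encodes an adaptor that passes signals from many activating receptors. Lyz2 encodes the lysozyme of phagocytes, C1qa and C1qb encode chains of the complement protein C1q, Csf1r encodes the receptor for the macrophage growth factor CSF1, H2-Aa encodes the alpha chain of an MHC class II molecule, and Siglech encodes a sialic acid-binding receptor of plasmacytoid dendritic cells.

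**Figure D1:**
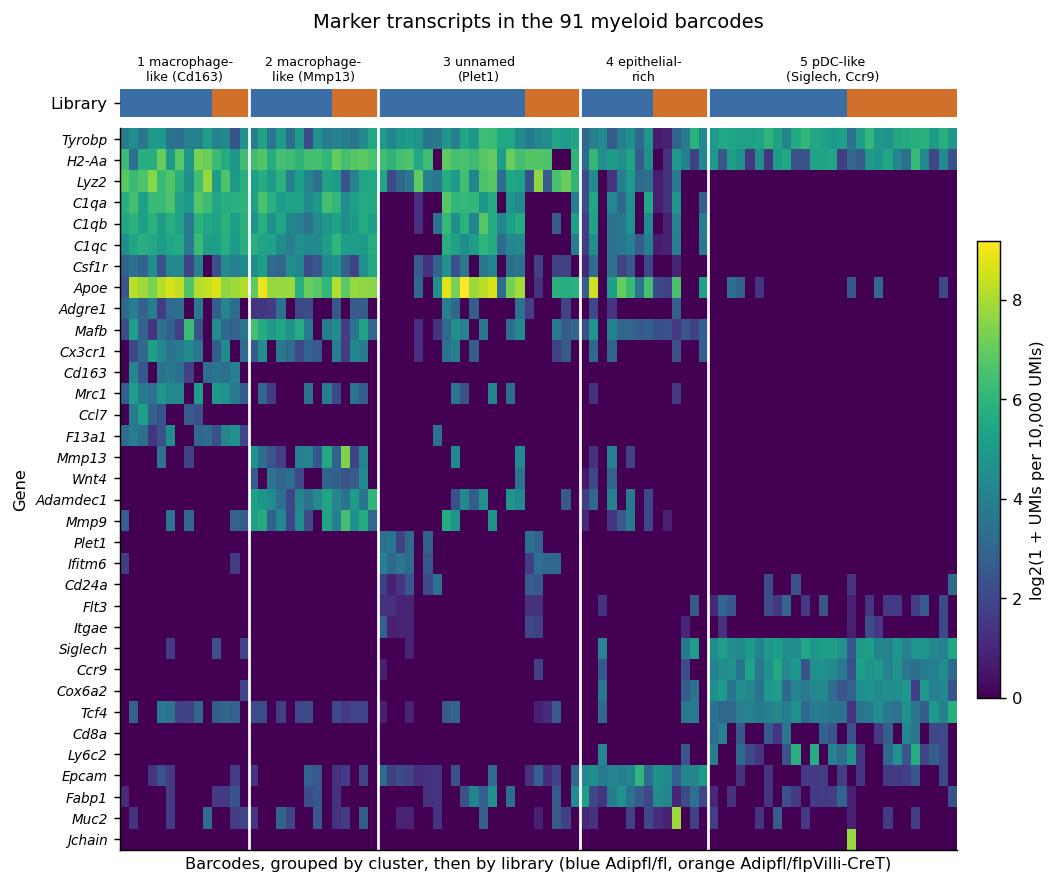
Marker transcripts in each of the 91 myeloid barcodes. Columns are barcodes grouped by cluster and then by library (blue Adipfl/fl, orange Adipfl/flpVilli-CreT), rows are genes, and color gives log2(1 + UMIs per 10000 UMIs). Siglech, Ccr9 and Cox6a2 fill cluster 5, C1qa, C1qb and C1qc fill clusters 1 and 2, and Epcam was detected in all 14 barcodes of cluster 4.

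C1q genes and Siglech, of which C1qa, C1qb and Siglech served to choose the members, were mostly detected in different barcodes. All 3 C1q genes (C1qa, C1qb and C1qc) were detected together in 33 control and 13 Cre-library barcodes, and Siglech in 18 and 16. A C1q gene and Siglech occurred in the same barcode in 1 and 2 cases, and neither in 4 and 4. The 3 C1q genes lie side by side on chromosome 4 of GRCm38, from 136880129 to 136898803, within 18.7 kb and on the minus strand. In T cells of the same libraries, taken as passing barcodes with at least 2 UMIs of Cd3 genes, C1qa was found in 1 of 459 control barcodes (median depth 5319 UMIs, against 5040.5 in myeloid cells) and in 0 of 576 in the Cre library (median depth 4713 UMIs, against 4809), so free C1qa RNA was close to the detection limit.

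Promoter sequences of C1q genes and Lyz2 and of the plasmacytoid genes Siglech and Ccr9 are shown to place them side by side, from RefSeq on GRCm38.p6, 5′ to 3′, from 250 bases before to 50 bases after the start. RefSeq entries were matched for 4 of the 7 selection genes (Tyrobp and the 6 named above). Capitals mark 2 motifs searched on both strands. GAGGAA is the core bound by the myeloid factor PU.1 (encoded by Spi1), and CAGGTG or CAGCTG is the E-box bound by E proteins such as TCF4, a regulator of plasmacytoid dendritic cells.
C1qb promoter, chr4:136886151-136886450 (-): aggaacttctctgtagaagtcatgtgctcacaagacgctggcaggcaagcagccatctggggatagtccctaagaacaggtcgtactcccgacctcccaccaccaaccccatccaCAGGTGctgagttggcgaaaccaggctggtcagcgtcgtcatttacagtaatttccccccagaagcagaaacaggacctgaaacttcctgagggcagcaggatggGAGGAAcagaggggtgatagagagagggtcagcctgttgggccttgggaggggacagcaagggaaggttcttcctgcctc
C1qc promoter, chr4:136892865-136893164 (-): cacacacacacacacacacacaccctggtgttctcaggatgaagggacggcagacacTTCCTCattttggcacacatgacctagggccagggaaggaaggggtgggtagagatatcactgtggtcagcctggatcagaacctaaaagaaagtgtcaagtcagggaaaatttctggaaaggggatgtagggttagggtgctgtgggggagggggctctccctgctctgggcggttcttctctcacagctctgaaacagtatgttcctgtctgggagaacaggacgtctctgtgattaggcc
Lyz2 promoter, chr10:117282223-117282522 (-): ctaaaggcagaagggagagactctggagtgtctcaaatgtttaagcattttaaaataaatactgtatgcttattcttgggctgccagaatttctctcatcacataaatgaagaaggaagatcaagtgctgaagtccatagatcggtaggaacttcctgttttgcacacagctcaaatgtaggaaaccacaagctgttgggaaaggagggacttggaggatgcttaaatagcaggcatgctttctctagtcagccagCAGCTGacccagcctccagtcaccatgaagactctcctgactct
Siglech promoter, chr7:55767934-55768233 (+): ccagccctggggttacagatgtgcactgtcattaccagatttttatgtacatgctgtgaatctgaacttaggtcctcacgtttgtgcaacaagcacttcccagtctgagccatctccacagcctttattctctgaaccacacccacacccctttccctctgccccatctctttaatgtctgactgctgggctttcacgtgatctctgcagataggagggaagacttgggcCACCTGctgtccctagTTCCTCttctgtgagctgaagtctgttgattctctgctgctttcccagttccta
Ccr9 promoter, chr9:123766961-123767260 (+): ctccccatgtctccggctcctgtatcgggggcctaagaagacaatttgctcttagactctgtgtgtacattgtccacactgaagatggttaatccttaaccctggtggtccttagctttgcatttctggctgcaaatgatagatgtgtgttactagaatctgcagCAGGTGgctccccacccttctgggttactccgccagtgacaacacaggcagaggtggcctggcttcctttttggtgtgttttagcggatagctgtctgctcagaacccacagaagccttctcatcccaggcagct

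GAGGAA or its complement was present once in C1qb, C1qc and Siglech, and not in the Lyz2 and Ccr9 windows. The E-box was present once in C1qb, Lyz2, Siglech and Ccr9, and not in the C1qc window. No 2 matches overlapped. Among 32851 promoters of the same length, 28.3% held the PU.1 core and 32.9% held the E-box, so both motifs are common and the matches are a description of letters only.

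The selection genes describe the members, and they were left out of the counts and medians of the function lists below. Tyrobp gave 808 UMIs in the 58 control barcodes and 433 in the 33 barcodes of the Cre library, and H2-Aa gave 1587 UMIs in 57 barcodes and 872 in 30. Lyz2 gave 939 UMIs in 42 control barcodes and 535 in 18 of the Cre library, C1qa 670 in 34 and 223 in 14, C1qb 467 in 36 and 189 in 14, Csf1r 159 in 34 and 67 in 13, and Siglech 251 in 18 and 152 in 16. Tyrobp is also a gene of cytotoxic lymphocytes, and 62.3% of control and 51.6% of Cre-library T cell barcodes held it. H2-Aa was found in 3.49% and 6.77% of T cells and in 24.7% and 27.4% of epithelial barcodes, Lyz2 in 3 of 459 and 1 of 576 T cells, and Siglech in 0 of either. At the edge of the rule, 20 control and 18 Cre-library members carried exactly 2 of the 6 genes, mostly H2-Aa with Siglech, while 17 and 7 passing barcodes with Tyrobp stayed outside because they carried 1. Of those outside, 9 and 7 carried H2-Aa, 7 and 0 Siglech, and 1 and 0 Lyz2. Tyrobp stood at its minimum of 1 UMI in 1 control member and 2 members of the Cre library. The exclusion of T and B cell genes removed 0 and 1 barcodes. The 27 barcodes of cluster 5 below had 0 UMIs of Lyz2, C1qa and Csf1r, so 3 of the 5 genes given as myeloid markers were absent from a sizeable fraction of the members, which are held together by Tyrobp and H2-Aa.

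The genes that led the members against all other passing cells are given as a description of the selected barcodes. Apoe, which carries cholesterol out of cells, stood at 8806 CPM (UMIs per 1000000 UMIs of the same barcodes) in control and 5619 CPM in Cre-library members, against 5.04 and 3.47 CPM in the other cells. It was followed by C1qc, the platelet factor gene Pf4, Aif1, Mmp9, Mpeg1 (a pore-forming protein), Ms4a6c, Cybb (a subunit of the phagocyte oxidase), Ms4a7 and Pld4. The plasmacytoid gene Cox6a2, the fractalkine receptor Cx3cr1, Spi1, Rnase6 and Dnase1l3 completed the first 15. Spi1 had 123 UMIs in 31 control barcodes and 46 in 18 barcodes of the Cre library.

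Myeloid cells were scarcer in the Cre library. They made up 1.89% of passing barcodes in Adipfl/fl (58 of 3069, exact Clopper-Pearson interval 1.44 to 2.44%) and 0.594% in Adipfl/flpVilli-CreT (33 of 5555, interval 0.409 to 0.833%), a ratio of 0.314 (interval 0.199 to 0.490). The intervals of the 2 libraries did not overlap. T cells also had a smaller share, 15.0% and 10.4%, but their ratio of 0.693 (interval 0.612 to 0.785) was closer to 1, and myeloid cells per T cell gave a ratio of 0.453 (interval 0.286 to 0.707). Epithelial barcodes, with at least 2 UMIs of Epcam and none of Ptprc or Cd3 genes, made up 75.9% and 82.9%. Among barcodes with the pan-leukocyte gene Ptprc, myeloid cells made up 7.97% (49 of 615) and 4.04% (29 of 717), a ratio of 0.508 (interval 0.309 to 0.820), so the size of the difference depended on the denominator. Among all deposited barcodes they were 58 of 9791 and 33 of 11838 (ratio 0.471, interval 0.297 to 0.734), and with a mitochondrial limit of 10% they were 47 of 1236 and 32 of 2015 (ratio 0.418, interval 0.258 to 0.668). The study retained more barcodes of each library than the limits used here. These limits passed 3069 of 9791 control barcodes and a larger fraction, 5555 of 11838, of the Cre library. The ratio of 0.314, against 0.471 among all deposited barcodes, therefore depends on the limits as well. Barcodes that met the gene rule but failed the quality limits numbered 20 in the control (16 on genes, 4 on the mitochondrial share) and 5 in the Cre library (4 and 1). Fewer cells in the tissue and lower release during digestion cannot be told apart from these shares.

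Depth was similar between the groups. Control members had a median of 5040.5 UMIs (1014 to 19137) and 2062 genes, and members of the Cre library 4809 UMIs (1384 to 16195) and 1965 genes. Their median mitochondrial shares were 2.58% and 2.30%, against 18.0% and 17.6% in epithelial barcodes. In total 311030 and 200220 UMIs were available, from libraries of 42150623 and 63370798 UMIs. Of 31 barcode sequences present in both libraries, 0 belonged to members.

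**Figure D2:**
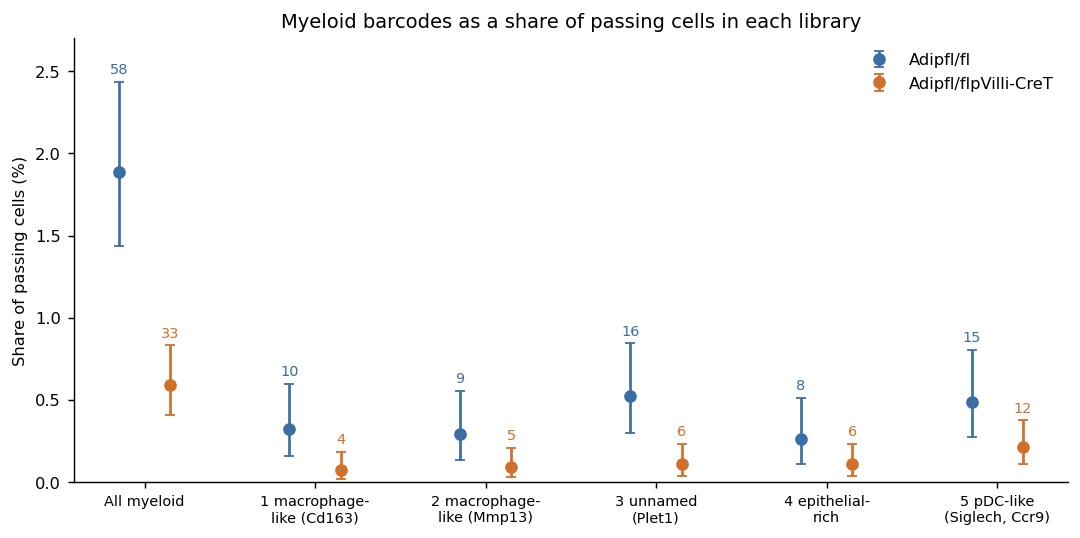
Share of passing barcodes that were myeloid, in all and by cluster, in each library. Points are shares in percent, bars are exact 95% binomial intervals, and the numbers are barcodes. All 5 clusters had a smaller share in the Cre library, with 10 against 4, 9 against 5, 16 against 6, 8 against 6 and 15 against 12 barcodes, and the intervals of the ratio included 1 for clusters 2, 4 and 5.

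Clustering of the 91 barcodes gave 5 groups, the same at resolutions of 0.4, 0.8 and 1.2. Genes that define a cluster were used to form it and are given as a description. Cluster 1, with 10 control and 4 Cre-library barcodes, was macrophage-like, with 11 of 14 macrophage markers at least 2-fold above the other members. Its leading genes were the haemoglobin scavenger receptor gene Cd163 (49 UMIs in 10 of its 14 barcodes and 0 in all other members), the monocyte-attracting chemokine genes Ccl7 and Ccl2, Dab2, Fcrls, Cbr2, Igfbp4, F13a1 (coagulation factor XIII), Ccl9 and the mannose receptor gene Mrc1. Its share of passing barcodes was 0.326% and 0.0720%, a ratio of 0.221 (interval 0.0506 to 0.766).

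Cluster 2, with 9 and 5 barcodes, also had 11 of 14 macrophage markers, but had other leading genes. The collagenase gene Mmp13 gave 133 UMIs in 12 of its 14 barcodes, the gelatinase gene Mmp9 gave 154 in 13, and Adamdec1, a metalloprotease of gut macrophages, gave 111 in 14. Wnt4, which encodes a secreted Wnt ligand, gave 31 UMIs in 10 of these barcodes and 8 in all other members. Thbs1, Ecm1, Gbp2b, Gbp4, Lpcat2 and Ptgs1 (cyclooxygenase 1) were also among its 10 leading genes. Timd4, a receptor for dying cells, was found in 9 of the 14 and Il1b (interleukin 1 beta) in 10, against 2 and 1 of 14 in cluster 1, while Pf4 was found in 8 against all 14. Mmp9 is also a neutrophil gene, and the neutrophil genes S100a9, Cxcr2 and Retnlg were at 0 in all members, with S100a8 at 0 in the control. The share of cluster 2 was 0.293% and 0.0900% (ratio 0.307, interval 0.0808 to 1.02).

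Cluster 3, with 16 and 6 barcodes, was left unnamed, because 0 of 14 macrophage markers, 2 of 8 type 1 and 1 of 8 type 2 conventional dendritic cell markers were at least 2-fold above the other members. It was a mixture. Of its 22 barcodes 9 held all 3 C1q genes, 9 held none, and 7 of those 9 without C1q held Plet1, which was found in no other cluster. Ifitm6 was found in 8 of the 9 without C1q and 0 of the 9 with all 3, Cd24a in 7 and 0, the dendritic cell growth factor receptor gene Flt3 in 6 and 0, Itgae (integrin alpha E, CD103) in 6 and 0, and the lectin gene Cd209a in 6 and 0. Apoe was found in 2 and 9. Lyz2 was present in all 22 and H2-Aa in 19. Xcr1, which marks type 1 conventional dendritic cells, was at 0 in all members. By library the barcodes without C1q numbered 5 and 4 and those with all 3 numbered 8 and 1. The share of cluster 3 was 0.521% and 0.108% (ratio 0.207, interval 0.0664 to 0.557).

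Cluster 5, with 15 and 12 barcodes the largest, was plasmacytoid dendritic cell-like (pDC-like), with 9 of 9 markers at least 2-fold above the other members. Siglech, the gut-homing chemokine receptor gene Ccr9, Cox6a2, Ly6d, Bst2, Irf8 and the E protein gene Tcf4 were detected in all 27 barcodes. Ccr9 gave 294 UMIs there and 10 in all other members, and Ly6d gave 643. The T cell coreceptor gene Cd8a was found in 15 of the 27 and in 0 other members, and Cd8b1 in 18, while Cd3e, Cd3g and Cd3d were at 0 by the rule and Trbc2, Trdc and Cd5, which the rule did not use, were also at 0 in all members. Trac gave 1 UMI in 1 control barcode, of cluster 3. Cd4 was found in 24 of 58 control and 7 of 33 Cre-library members, 13 of them in cluster 5. Ly6c2 was found in 18 of 27 and in 2 other members. The share of this cluster was 0.489% and 0.216%, a ratio of 0.442 (interval 0.189 to 1.01). Among members it made up 25.9% (interval 15.3 to 39.0%) in the control and 36.4% (20.4 to 54.9%) in the Cre library, and these intervals overlapped.

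**Figure D3:**
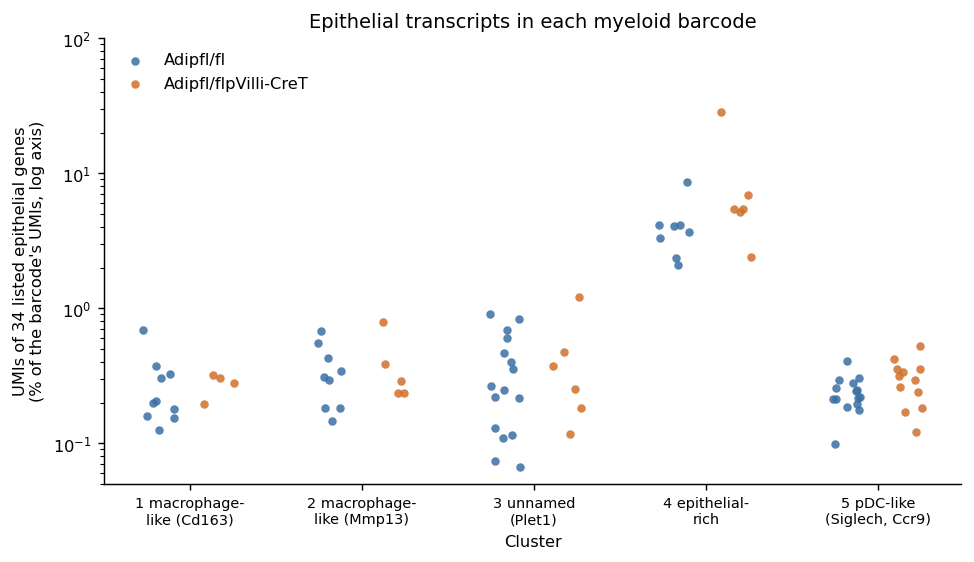
Share of each barcode's UMIs that came from 34 listed enterocyte, goblet, Paneth and pan-epithelial genes, on a log axis, by cluster and library (points are barcodes). The 14 barcodes of cluster 4 lay between 2.10 and 28.6%, while the highest value in any other cluster was 1.21%.

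Cluster 4, with 8 and 6 barcodes, held epithelial RNA beside myeloid RNA. All 10 enterocyte markers and all 8 pan-epithelial markers were at least 2-fold above the other members, its median mitochondrial share was 13.9%, and 10 of its 14 barcodes held C1qa. Its share of passing barcodes was 0.261% and 0.108%, a ratio of 0.414 (interval 0.119 to 1.36). Barcodes of cluster 4 held 0 to 29 UMIs of C1qa. A Cre-library barcode with 16195 UMIs held only 1 UMI each of Tyrobp, Lyz2 and C1qa. C1qa was found in 11 of 2329 control and 2 of 4603 Cre-library epithelial barcodes. Those were taken outside the members, so the rule itself lowered these counts and they set no background for cluster 4. No doublet caller was applied. A single Cre-library barcode of this cluster, with 10547 UMIs of which 28.6% came from the listed epithelial genes, held 2226 of the 2321 goblet-list UMIs of the Cre-library members and 683 of the 685 Paneth-list UMIs. Another single barcode of the Cre library, in cluster 5, held all 263 UMIs of Jchain and 2127 of the 2141 of Igkc, which are plasma cell transcripts, together with 6 UMIs of Siglech. A further barcode of the Cre library, in cluster 3, held 54 of the 58 cycling-list UMIs. Counts of genes are therefore given both with all 91 barcodes and with 76 (50 and 26). The 76 are those that remain without cluster 4 and the plasma-rich barcode. Many single genes are also given with the 76. The fold of the selection gene H2-Aa, Cre library over control, was 0.854 with all 91 barcodes and 1.09 (interval 0.997 to 1.19) with 76. Lyz2, also a selection gene, was at 1.14 (interval 1.02 to 1.27) with 76, where 256 of its 519 Cre-library UMIs came from 1 barcode. Members were admitted on these genes, so the folds of H2-Aa and Lyz2 describe the selected barcodes only. Removing cluster 4 alone left the ratio of shares at 0.298 (interval 0.180 to 0.486).

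**Figure D4:**
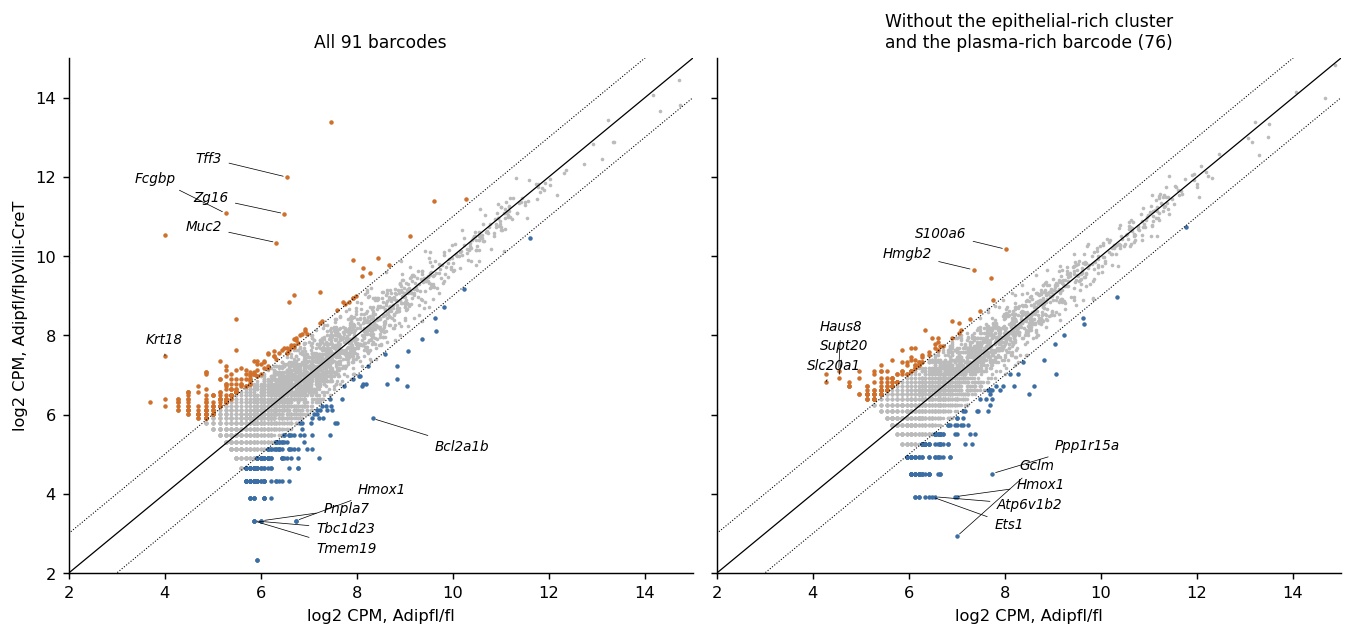
Level of each compared gene in Adipfl/fl (horizontal axis) and Adipfl/flpVilli-CreT (vertical axis) myeloid barcodes, in log2 CPM, with all 91 barcodes (left) and with 76 (right). Points are genes with UMIs in both libraries, the solid line marks equal levels, dotted lines mark 2-fold, colored points lie beyond 2-fold, and names mark the first 5 genes in each direction. Goblet genes stand far above the line on the left and are absent from that position on the right.

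Between genotypes most compared transcripts of the myeloid barcodes were not called at 2-fold. Genes near the limit of 20 UMIs have wide intervals, so a missing call does not show equal levels. Of 4154 genes with at least 20 UMIs in all and detected in at least 10% of the members of the higher library, 235 (5.66%) were at least 2-fold higher and 210 (5.06%) at least 2-fold lower in the Cre library, and the median log2 fold was -0.002. With the 76 barcodes, 138 of 3225 genes (4.28%) were higher and 168 (5.21%) lower, and 68 and 103 of these were also called with all 91. The interval of the fold excluded 1 for 169 of the 235 and 113 of the 210 calls.

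With all 91 barcodes the genes that were higher by the greatest factor were goblet and enterocyte genes. The mucus genes Fcgbp (12 and 434 UMIs), Tff3 (29 and 818), Zg16 (28 and 431) and Muc2 (25 and 260) led, followed by Krt18, Guca2a and Lypd8. The epithelial-rich barcode with goblet RNA held 424 of the 434 UMIs of Fcgbp, 789 of those of Tff3, 398 of those of Zg16 and 243 of those of Muc2. Leaving out each gene's richest barcode in each library brought the fold of Fcgbp from 56.2 to 1.63 and that of Muc2 from 16.2 to 1.25. With 76 barcodes Tff3 was at 2.26, Zg16 at 1.96 and Muc2 at 1.18. T cells of the same libraries also held more goblet RNA in the Cre library (Fcgbp 34.3 and 692 CPM), whereas epithelial barcodes did not (3991 and 3123 CPM). These are summed levels. The median T cell barcode had 0.232% and 0.357% of its UMIs from the listed epithelial genes, and the highest 6.75% and 24.7%. How far single barcodes carry the T cell value was not tested. Sec61g, a subunit of the protein-translocation channel, and Tubb4b, a beta-tubulin, were also among the first 10. Sec61g gave 11 UMIs in 10 control barcodes and 33 in 15 barcodes of the Cre library (4.66-fold, interval 2.30 to 10.2), and with 76 barcodes it gave 11 in 10 and 18 in 11 (3.21-fold, interval 1.44 to 7.52). It was also higher in epithelial barcodes (2.16-fold) and T cells (1.86-fold).

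Among the genes that were lower, Hmox1 led. It encodes heme oxygenase 1, which releases iron from heme in macrophages. Hmox1 gave 33 UMIs in 12 control barcodes and 2 UMIs in 2 barcodes of the Cre library, 106 and 9.99 CPM, a fold of 0.0941 (interval 0.0109 to 0.368). In clusters 1 and 2 alone it gave 24 UMIs in 8 of 19 control barcodes and 2 in 2 of 9, a fold of 0.180 (interval 0.0206 to 0.723). Its control UMIs lay in clusters 1 to 4 (15, 9, 8 and 1), its 2 Cre-library UMIs in clusters 1 and 2, and cluster 5 held 0 in both libraries. Pnpla7, Tbc1d23 and Tmem19 followed with 18 to 20 UMIs in the control and 2 each in the Cre library.

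Bcl2a1b, an anti-apoptotic gene, gave 100 UMIs in 27 control barcodes and 12 in 6 barcodes of the Cre library (fold 0.186, interval 0.0932 to 0.340). In the control 64 of its 100 UMIs came from cluster 3, and within clusters 1 and 2 its fold was 0.743 (interval 0.323 to 1.57). Its near-identical neighbours Bcl2a1a (fold 0.551, and 0.830 with 76 barcodes) and Bcl2a1d (fold 0.750, and 1.06) may share reads with it, so the division among the 3 genes is uncertain. Serpinb6b, Pla2g2d (a secreted phospholipase) and Art2a gave 46, 30 and 21 UMIs in the control and 6, 4 and 3 in the Cre library. Within clusters 1 and 2 the fold of Pla2g2d was 0.718, which is not beyond 2-fold. Art2a gave 11 UMIs in 7 control barcodes of these clusters and 0 in the Cre library. Its value of 0.588 there is set by the floor of 3 UMIs, so it is an upper limit and decides nothing about a 2-fold difference. With 76 barcodes Fcgbp, Krt18, Guca2a, Lypd8, Tubb4b, Pnpla7, Tbc1d23, Tmem19 and Art2a no longer met the limits for comparison.

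**Figure D5:**
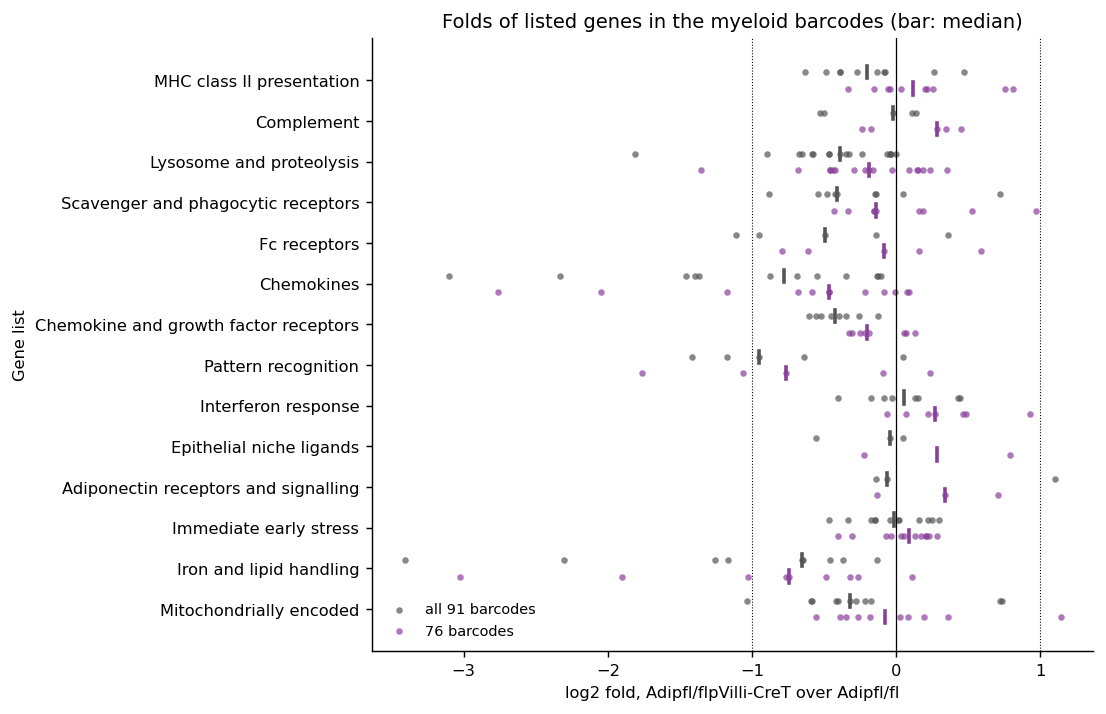
Log2 fold of each compared gene of the function lists, Adipfl/flpVilli-CreT over Adipfl/fl, with all 91 barcodes (gray) and with 76 (purple). Points are genes other than the selection genes, bars are list medians, and dotted lines mark 2-fold. Chemokine and iron and lipid handling genes reach beyond 2-fold lower, and MHC class II genes lie within 2-fold.

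The function lists are described by counts and medians beside the background of 5.66% higher and 5.06% lower. The members pooled for them differed in make-up. Barcodes with all 3 C1q genes were 56.9% of control and 39.4% of Cre-library members, and cluster 5 was 25.9% and 36.4%. With 76 barcodes cluster 5 was still 15 of 50 and 11 of 26. There it held 0 UMIs of Hmox1, Slc11a1, Pf4, Ccl24, Cd14 and Clec7a. All list counts and medians mix this make-up with levels within cells, and the part of each was not tested. Iron and lipid handling genes had 4 of 9 compared members at least 2-fold lower and 0 higher, with a median log2 fold of -0.65, against -0.002 over all compared genes. Besides Hmox1 these were Ftl1 (ferritin light chain), Slc11a1 (the phagosomal metal transporter NRAMP1) and Plin2 (a lipid droplet coat protein). With 76 barcodes 3 of 9 were lower and the median was -0.74.

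Ftl1 was detected in every member, with 976 UMIs in the control and 280 in the Cre library, 3138 and 1398 CPM, a fold of 0.446 (interval 0.389 to 0.510). Per barcode, with 76 barcodes, it ranged from 1.92 over a median of 25.7 to 189 UMIs per 10000 in the control, and from 3.96 over 13.8 to 92.3 in the Cre library. The 2 ranges overlapped widely. Within clusters 1 and 2 the fold was 0.720 (interval 0.580 to 0.889) and within cluster 5 it gave 96 and 43 UMIs without the plasma-rich barcode, where the interval of the fold was 0.545 to 1.16. The 2-fold call was not met within either set. In the mixed cluster 3 Ftl1 gave 450 UMIs in 16 control and 64 in 6 Cre-library barcodes, 5193 and 1466 CPM, which is beyond 2-fold. Ftl1 has processed copies in the genome, so its counts are uncertain to that extent. Fth1, the ferritin heavy chain, gave 10378 and 7547 CPM (fold 0.727, interval 0.684 to 0.773), and 0.955 (interval 0.829 to 1.10) within clusters 1 and 2.

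Slc11a1 gave 23 UMIs in 12 control barcodes and 3 in 3 barcodes of the Cre library (fold 0.203, interval 0.0389 to 0.671). Within clusters 1 and 2 it gave 19 UMIs in 9 of 19 and 3 in 3 of 9 (fold 0.340, interval 0.0645 to 1.16). Plin2 gave 52 UMIs in 22 barcodes and 14 in 7 (fold 0.418, interval 0.214 to 0.766), and 0.597 with 76 barcodes, which is not a 2-fold difference. Apoe was at 0.638 (interval 0.595 to 0.684) over all members and at 1.15 (interval 1.06 to 1.24) within clusters 1 and 2.

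Chemokine genes had 5 of 12 compared members at least 2-fold lower and 0 higher (median log2 fold -0.78). With 76 barcodes 3 of 12 were lower (median -0.46), and these were Ccl7, Ccl24 and Pf4. Ccl24, which attracts eosinophils, gave 164 UMIs in 16 control barcodes and 21 in 6 of the Cre library (527 and 105 CPM, fold 0.199, interval 0.120 to 0.314). Its UMIs lay mainly in clusters 2 and 3, and within clusters 1 and 2 it gave 80 UMIs in 7 of 19 and 17 in 5 of 9 (fold 0.458, interval 0.254 to 0.780).

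Pf4 gave 205 UMIs in 21 control barcodes and 48 in 12 of the Cre library (fold 0.364, interval 0.260 to 0.500). It was found in 13 of 19 control barcodes of clusters 1 and 2 and in all 9 of the Cre library, at 1942 and 1001 CPM (fold 0.515, interval 0.354 to 0.735). A larger fraction of the Cre-library barcodes of clusters 1 and 2 thus held the gene, at a lower summed level, and the per-barcode ranges (0 to 69.0 and 1.57 to 25.1 UMIs per 10000) overlapped. Ccl7 was confined to 6 control barcodes of cluster 1, with 40 UMIs, and was at 0 in the Cre library, where only 4 barcodes of that cluster exist. Ccl8 and Cxcl9 gave 16 and 49 UMIs in the control and 4 and 12 in the Cre library. The interval of Ccl8 included 1, and Cxcl9 was at 0.624 with 76 barcodes. Ccl4, the chemokine gene with the most UMIs in the list, did not differ by 2-fold (703 and 416 UMIs, fold 0.919, interval 0.812 to 1.04, and 1.06 with 76 barcodes).

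Of 15 pattern recognition genes 5 could be compared. With and without the doubtful barcodes 2 of the 5 were lower and 0 higher. Clec7a, which encodes the fungal glucan receptor dectin-1, gave 91 UMIs in 29 control barcodes and 22 in 8 of the Cre library (fold 0.376, interval 0.224 to 0.603), and 0.732 (interval 0.396 to 1.29) within clusters 1 and 2. Cd14, the coreceptor for bacterial lipopolysaccharide, gave 42 UMIs in 13 barcodes and 12 in 5 (fold 0.444, interval 0.213 to 0.859), with a fold of 0.294 with 76 barcodes and 0.446 (interval 0.151 to 1.09) within clusters 1 and 2. The Toll-like receptor genes Tlr7 (33 and 11 UMIs, fold 0.518) and Tlr12 (29 and 12, fold 0.643) and the adaptor gene Myd88 did not reach 2-fold.

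Of 10 compared genes of MHC class II antigen presentation 0 were at least 2-fold higher and 0 lower, with a median log2 fold of -0.20 over all members and 0.12 with 76 barcodes. With backgrounds of 5.66% and 5.06%, a count of 0 in so short a list is no result about these genes. The invariant chain gene Cd74 stood at 10494 and 7512 CPM (fold 0.716, interval 0.673 to 0.761), H2-Ab1 at 4601 and 2972 CPM (fold 0.646, interval 0.586 to 0.711), both with intervals below 1, and H2-Eb1 at 3881 and 3686 CPM (interval of the fold 0.866 to 1.04). With 76 barcodes H2-Eb1 turned to 1.15 (interval 1.04 to 1.27), Cd74 was at 0.898 and H2-Ab1 at 0.796. Per cluster, H2-Aa ranged from 9070 CPM in cluster 2 and 7806 in cluster 3 to 2119 in the pDC-like cluster 5 and 1664 in cluster 4.

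Complement genes had 0 of 5 compared members beyond 2-fold. C1qc, the C1q gene that the selection did not use, stood at a fold of 0.707 over all members and 0.886 (interval 0.734 to 1.07) with 76 barcodes, and at 1.17 (interval 0.962 to 1.42) within clusters 1 and 2. Lysosomal genes had 1 of 17 lower, Lipa, which encodes the lysosomal acid lipase (60 UMIs in 28 barcodes and 11 in 7, fold 0.285, interval 0.135 to 0.547). Lipa stayed lower within clusters 1 and 2, with 26 UMIs in 15 of 19 barcodes and 3 in 2 of 9 (fold 0.249, interval 0.0482 to 0.811). Cathepsin genes such as Ctsb (1495 and 1144 CPM, fold 0.765) and Psap, the precursor of the saposins (2665 and 2592 CPM, fold 0.973), did not reach 2-fold, and Psap turned to 1.18 (interval 1.04 to 1.32) with 76 barcodes.

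Fc receptor genes had 1 of 5 lower (Fcgr3, 84 and 25 UMIs, fold 0.462, interval 0.283 to 0.730), and Fcgr3 was not called with 76 barcodes (fold 0.578). Scavenger and phagocytic receptor genes had 0 of 9 beyond 2-fold (Mrc1 98 and 47 UMIs, fold 0.745, Stab1 86 and 30, fold 0.542), and chemokine and growth factor receptor genes 0 of 8 (Csf2rb 104 and 44, fold 0.657). Interferon response genes had 0 of 8. Among these, Bst2 (335 and 212 UMIs, fold 0.983) and Ifitm3 (182 and 104, fold 0.888, and 1.17 with 76 barcodes) had the most UMIs, and Isg15 stood at 1.36 with all barcodes and at 1.91 (interval 1.15 to 3.15) with 76. Immediate early stress genes, which digestion at warm temperature can induce, had 0 of 12 (median log2 fold -0.016). Junb gave 629 and 359 UMIs (fold 0.887, and 1.02 with 76 barcodes) and Fos 615 and 401 (fold 1.01). Only 2 of 16 cytokine genes could be compared, Il1b (119 and 82 UMIs, fold 1.07) and Tgfb1 (95 and 39, fold 0.638), and neither reached 2-fold. Of 16 genes for epithelial niche ligands 3 could be compared, and 0 differed by 2-fold. Wnt4 gave 24 UMIs in 10 barcodes and 15 in 4 (fold 0.971, interval 0.474 to 1.93), and 17 and 15 with 76 barcodes (fold 1.73, interval 0.805 to 3.68). Within clusters 1 and 2 its fold was 2.02 (interval 0.930 to 4.36), and Rspo1, Rspo3, Wnt2b and Wnt5a were at 0 in both libraries. Indole and xenobiotic receptor genes had 0 of 2 beyond 2-fold (Ahr 32 and 17 UMIs, Tiparp 39 and 26).

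Mitochondrially encoded genes had 1 of 11 lower, mt-Atp6 (54 and 17 UMIs, fold 0.489, interval 0.266 to 0.857), which was not called with 76 barcodes (23 and 8 UMIs, fold 0.682, interval 0.264 to 1.58). The gene mt-Nd3, a complex I subunit, ran the other way, at 302 and 499 CPM (fold 1.65, interval 1.23 to 2.21). Without the doubtful barcodes it gave 40 UMIs in 25 of 50 and 45 in 18 of 26 barcodes, a fold of 2.21 (interval 1.41 to 3.47), and within clusters 1 and 2 a fold of 3.05. It was higher in the Cre library in epithelial barcodes too (609 and 1473 CPM) and in T cells (190 and 724 CPM). Apoa1, the most abundant enterocyte transcript among members, stood at 3077 and 3916 CPM, against 17404 and 16344 CPM in epithelial barcodes. Most of it came from the doubtful barcodes, since its 957 and 784 UMIs fell to 165 and 98 with 76 barcodes. Agr2, a goblet gene, was at 0 in the control and at 12 UMIs in the Cre library.

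The adiponectin receptors were present in myeloid cells of both libraries. Adipor1 gave 39 UMIs in 30 of 58 control barcodes and 24 in 18 of 33 (125 and 120 CPM, fold 0.956, interval 0.550 to 1.63), and Adipor2 gave 53 in 22 and 31 in 14 (170 and 155 CPM, fold 0.909, interval 0.564 to 1.44). With 76 barcodes Adipor1 turned to 1.27 (interval 0.684 to 2.29) and Adipor2 was at 0.911 (interval 0.433 to 1.82), and within clusters 1 and 2 Adipor1 was at 1.69 (interval 0.695 to 4.01). All of these intervals included 1. The 2 receptors were spread differently over the clusters. Adipor1 was found in 7 of 14 barcodes of cluster 1 and 12 of 14 of cluster 2, where Adipor2 was found in 1 and 1. In the pDC-like cluster 5 Adipor1 was found in 7 of 27 and Adipor2 in 16 of 27, and in cluster 3 in 15 and 8 of 22. Cluster 4, which holds epithelial RNA, contributed 43 of the Adipor2 UMIs, and epithelial barcodes had Adipor2 at 339 and 297 CPM. No cell type that should lack these genes was at hand to set the background. Of the other signalling genes on the list, only Stk11, the kinase LKB1, had enough UMIs to compare (13 and 18 UMIs, fold 2.15, interval 0.996 to 4.77), and with 76 barcodes it gave 12 and 10 (fold 1.63, interval 0.633 to 4.13). Cdh13, the non-signalling adiponectin-binding cadherin, was at 0.

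Without the epithelial-rich cluster and the plasma-rich barcode, other genes led each direction. These were chosen after their values were seen. Haus8, Slc20a1, Supt20, Hmgb2 and S100a6 were highest in the Cre library. Hmgb2, a chromatin protein of cycling cells, gave 42 UMIs in 21 of 50 control barcodes and 106 in 14 of 26, of which 74 came from a single barcode, and S100a6 gave 67 in 18 and 152 in 13, of which 124 came from a single barcode. Gclm, Ppp1r15a, Hmox1, Atp6v1b2 and Ets1 were lowest. Ppp1r15a, which encodes the stress-induced phosphatase subunit GADD34, gave 55 UMIs in 18 of 50 control barcodes, at most 10 in any of them, and 3 in 3 of 26 of the Cre library (fold 0.107, interval 0.0214 to 0.329). Within clusters 1 and 2 it gave 42 UMIs in 12 of 19 and 1 in 1 of 9 barcodes (fold 0.0513, interval 0.00127 to 0.302). Gclm, a subunit of the enzyme that makes glutathione's precursor, gave 33 UMIs in 10 barcodes and 1 in 1, and 25 of the 33 came from 3 control barcodes of cluster 3. Ets1 was found in 11 of 15 control and 2 of 11 Cre-library barcodes of cluster 5 (21 and 2 UMIs, fold 0.170, interval 0.0193 to 0.696).

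Markers of other cell types were present in the members. Summed over each list, enterocyte transcripts stood at 6588 and 10903 CPM, all 10 genes detected and Apoa1 highest, pan-epithelial transcripts at 1630 and 3062 CPM, goblet transcripts at 322 and 11592 CPM, and Paneth transcripts at 16.1 and 3421 CPM. The epithelial-rich barcode described above held 2226 of the 2321 goblet and 683 of the 685 Paneth UMIs of the Cre-library members. B and plasma cell transcripts stood at 563 and 1998 CPM, led by Ighm in the control and by Jchain in the Cre library, with Cd79a at 0. T cell transcripts stood at 511 and 340 CPM, led by Cd8b1. Fibroblast and erythroid markers were at 0 in both libraries, and the eosinophil genes Ccr3, Prg2, Epx and Il5ra were at 0. The part of these transcripts in genes other than their own was not tested. Monocyte transcripts stood at 3508 and 4585 CPM, led by Plac8 (4018 and 4058 CPM for the list in epithelial barcodes), with Vcan at 0. Type 1 conventional dendritic cell transcripts stood at 1817 and 1803 CPM, led by Irf8, and type 2 at 993 and 1089 CPM, led by Sirpa. Migratory dendritic cell transcripts stood at 254 and 205 CPM, neutrophil transcripts at 440 and 445 CPM, led by Mmp9, mast cell transcripts at 16.1 and 19.98 CPM, led by Kit, natural killer or innate lymphoid transcripts at 186 and 160 CPM, led by Il7r, and endothelial transcripts at 164 and 160 CPM, led by Pecam1. Eosinophil, tuft, stem and enteroendocrine lists had between 0 and 14 UMIs in each library, and cycling transcripts had 4 and 58. The macrophage list, which holds the selection genes C1qa, C1qb and Csf1r, summed to 17346 and 10813 CPM, led by Apoe, and the plasmacytoid list, which holds Siglech, to 5347 and 5679 CPM.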

How the data were processed

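Droplet-based 3′ libraries of 2 pooled samples, 1 per genotype, were analysed. The authors counted reads with Cell Ranger (7.1.0 in the file header) on mm10, per the submitters' processing notes, and deposited raw UMI counts per gene and barcode. The features and barcodes tables hold names only. The members and all lists were chosen with earlier results of these data known. Counts were summed per library and expressed as CPM, and folds are CPM of the Cre library over control with exact conditional binomial intervals. A fold of at least 2 was called, with a count of 0 set to a floor of 3 UMIs. The 7 selection genes were left out of list counts and medians. The rule for named genes took the 10 highest and 10 lowest folds among genes detected in at least 20% of the higher library's members, the 15 leading genes, the selection genes, Adipoq and its receptors, mt-Nd3, Agr2, Apoa1, subset-defining markers and up to 4 genes per list with the most UMIs. Other genes named were chosen after their values were seen. A few genes that this rule or the lists named are not reported here. Members were clustered with scanpy 1.11.5 (1000 variable genes, 10 principal components, 10 neighbours, Leiden resolution 0.8, igraph 0.11.9). Doublets were not called, and 14 epithelial-rich barcodes were left in and then out. Intervals cover counting error only, and 1 library a genotype allows no test. Scripts were tested on simulated data. Alternatives covered filters, denominators, cell weighting and doubtful barcodes.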

Additional observations from a re-analysis of the deposited data

How the results depend on the processing

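No paired analysis was possible because each genotype is 1 library and the labels carry no replicate numbers, and no replicate could be left out. The ratio of myeloid shares stayed below 1 under all 13 alternatives, between 0.218 and 0.508, and moved outside the interval of the main value only among barcodes with Ptprc (0.508). The 235 genes called higher became 540 with at least 10 UMIs, 64 with at least 50 UMIs, 144 without each gene's richest cell, 134 with at least 3 selection genes, 60 within the largest subset, 73 after thinning to 2000 UMIs, 131 without the epithelial-rich cluster, 138 without it and the plasma-rich barcode, and 47 within clusters 1 and 2. The 210 called lower became 506, 41, 87 (largest subset), 77 (thinned) and 71 (clusters 1 and 2) and stayed within 1.5 times elsewhere. The number of genes that could be compared ranged from 6377 to 949, so these counts cannot be read without it. The main shares were 5.66% higher and 5.06% lower. Without the epithelial-rich cluster and the plasma-rich barcode they were 4.28% and 5.21% of 3225 genes. Within the largest subset, without the plasma-rich barcode, 37 of 1139 genes (3.25%) were higher and 82 (7.20%) lower. The fold of Muc2 turned to 0.609 within the largest subset, where it rested on 7 control and 3 Cre-library UMIs. That is below the limit of 20 UMIs for comparison. The settings that leave out the epithelial-rich cluster or single barcodes, or keep only clusters 1 and 2, were chosen after seeing the data. Clusters were 5 under every setting, and 80 of 91 barcodes kept their cluster with 20 principal components.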

Other observations

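Several transcripts of the myeloid barcodes came from very few cells. Retnla, which encodes the resistin-like protein RELM alpha, gave 541 UMIs in 1 control barcode of cluster 1 and 0 in all other members, with 18 further UMIs in the rest of the control library and 0 in the rest of the Cre library. Spp1, which encodes osteopontin, gave 35 UMIs in 2 control barcodes of cluster 3. Il22ra2, which encodes the soluble interleukin 22 binding protein, gave 44 UMIs, all in 1 barcode of the Cre library in cluster 3. Ccl17, a chemokine gene of dendritic cells, gave 37 UMIs in 2 control barcodes and 2 in 2 barcodes of the Cre library, all in cluster 3. Lpl, which encodes lipoprotein lipase, gave 93 UMIs in 2 control barcodes and 14 in 2 of the Cre library. The cycling barcode of the Cre library had 13613 UMIs, 10 of Top2a, 2 of Mki67, 141 of H2-Aa, 14 of Cd209a and 0 of C1qa. With the mitochondrial share counted from 13 protein-coding genes alone, leaving out the mitochondrial ribosomal and transfer RNA genes, 62 of 7637 control and 34 of 9729 Cre-library barcodes met the rule, a ratio of 0.430 (interval 0.275 to 0.664).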
